A study of Mus musculus with 20 samples.

Results

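The interferon-stimulated genes described here are 38 mouse genes whose transcription rises when cells receive interferon. They were chosen by gene symbol, through the NCBI Gene numbers that the count tables carry, and all 38 were found among the 24458 genes listed in the series. The study compared mammary tumour cells that had undergone an epithelial-mesenchymal transition. Some carried shRNAs against the chromatin regulators Tet2 or Mbd3, and some were treated with an inhibitor of histone deacetylases. Total RNA from breast cancer cells of the MMTV-PyMT mouse tumour model was sequenced in 20 libraries, 10 groups with 2 replicates each from 2 independent experiments. Py2T LT cells are the Py2T line kept in TGF-beta 1 at 2 ng/ml for more than 10 days. M1, M2 and M3 are stable mesenchymal lines, each 1 clone, for which the labels name no TGF-beta 1. The other 6 groups were all M3 cells with a control shRNA (shControl), an shRNA against Tet2 (shTet2) or an shRNA against Mbd3 (shMbd3). Each of these was studied untreated and after 72 hours in 2 µM CI994, which inhibits class I histone deacetylases. All effects of the shRNAs and of CI994 therefore come from 1 clone, and the labels do not say how many hairpins were used. Whether replicates were separate cultures beyond the 2 experiments is not stated, so a p-value measures the spread between these libraries.

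Type I interferons bind the receptor chains Ifnar1 and Ifnar2, whose kinases Jak1 and Tyk2 activate transcription factors. Among these, Stat2 and Irf9 act in a complex that binds the interferon-stimulated response element, a DNA motif near the start of many of these genes. Cells can also keep a low level of these genes without added interferon, through Irf1 and sensors of nucleic acids. Tet2 oxidises 5-methylcytosine in DNA, and Mbd3 is part of NuRD, a chromatin remodeller whose deacetylases are Hdac1 and Hdac2.

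Values for Py2T LT and the clones, 8 libraries, were deposited as RPKM (reads scaled to library depth and gene length), and those for the 12 shRNA libraries as CPM (reads scaled to depth alone). The sets were fitted separately, and no level is compared between them. CPM libraries held 16086082 to 24977595 reads, so a value of 0 allows up to 3 reads, 0.120 to 0.186 CPM, by counting error alone. Absolute depth of the RPKM libraries is unknown. Tet2 averaged 8.19 CPM with shTet2 against 14.5 CPM with shControl, a difference of -0.76 ± 0.18 (SE) on a log2 scale with limma adjusted p = 0.0176. Among cells treated with CI994 the Tet2 difference was -0.47 ± 0.18 and did not pass (adjusted p = 0.127). Mbd3 stood at 22.1 and 27.7 CPM with shMbd3, and at 5.40 CPM in the untreated library labelled shControl replicate 1 against 66.5 CPM in replicate 2. Its knockdown did not pass by limma, at 0.29 ± 0.81 untreated (adjusted p = 0.798) and -1.67 ± 0.81 with CI994 (adjusted p = 0.198). For that reason shMbd3 is named here by its label. With CI994 the libraries did not overlap, at 16.6 and 21.9 CPM in shMbd3 against 53.6 and 67.7 CPM in shControl. Untreated shTet2 stood at 56.9 and 66.3 CPM. Both tests take their error from 1 fit that includes untreated shControl replicate 1. That shControl library went against its label for Mbd3, and its difference from replicate 2 changed by -1.77 on the log2 scale between genes of the lowest and highest GC content. The other CPM pairs changed by -0.387 to 0.0140. Counts against untreated shControl are therefore given with and without that library. Over the members at 1 CPM or more, the median difference between its replicates was 0.41 on the log2 scale, against 0.11 to 0.24 in the other 5 CPM groups and 0.11 to 0.21 in the RPKM groups.

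Markers of other cells were checked because blood cells also express these genes. Of 9 listed haematopoietic markers in the RPKM files 2 reached 1 RPKM in any library, and of 10 in the CPM files 4 reached 1 CPM. Cd14 was the highest of these, at 19.9 to 39.9 RPKM and 20.6 to 45.6 CPM, and made up most of each sum below. Itgax and Adgre1 were at 0 in all RPKM libraries, Adgre1 was at 0 in all CPM libraries, and Ptprc, which encodes CD45, stayed at or below 0.378 CPM. Summed haematopoietic markers ran from 22.5 to 24.1 RPKM in Py2T LT and from 25.4 to 42.3 RPKM in the clones. In the CPM set they ran from 22.3 to 46.0 CPM untreated and from 41.1 to 55.9 CPM with CI994, with Cd68 at 0.918 to 3.12 CPM untreated and 6.69 to 16.6 CPM treated. Lyz2 ran from 0.0958 to 0.357 CPM untreated and from 2.41 to 4.75 CPM treated, and Csf1r reached at most 1.93 CPM. Of 5 plasmacytoid dendritic cell markers, Siglech and Ccr9 had 0 reads in all 12 CPM libraries, and Bst2 is itself a member. The other markers on that list, Tcf4 and Irf8, were present. Tcf4 stood at 10.7 and 13.4 RPKM in Py2T LT and 21.2 to 32.7 RPKM in the clones, and at 49.7 to 138 CPM. Irf8 stood at 1.44 and 0.976 RPKM in Py2T LT and 3.37 to 5.07 RPKM in the clones. With Bst2 included, the sum of the list ran from 17.4 to 19.8 RPKM in Py2T LT and from 42.8 to 62.6 RPKM in the clones. All 9 mesenchymal markers and 7 of 8 mammary epithelial markers reached 1 RPKM or 1 CPM in at least 1 library of each set. Their sums moved with several groups, mesenchymal markers at 2997 to 3100 RPKM in Py2T LT against 1333 to 1790 RPKM in the clones. Vim and Fn1 made up most of each mesenchymal sum, and with Zeb1, Zeb2 and Col1a1 they were lower in every clone library. Cdh2, Twist1, Prrx1 and Sparc were higher in every clone library, with Cdh2 at 1.74 and 1.94 RPKM in Py2T LT and 36.4 to 54.9 RPKM in the clones. Untreated, mesenchymal sums were 4846 to 6545 CPM in shControl and lower in shTet2 (3431 to 3467 CPM) and shMbd3 (3703 to 3948 CPM). With CI994 they were 8821 to 9224, 8408 to 9613 and 5208 to 5631 CPM in the same order. Single markers did not all follow these sums. Untreated, Cdh2 was higher in shTet2 (329 and 325 CPM) and shMbd3 (308 and 315 CPM) than in shControl (243 and 248 CPM). Sparc was higher in shMbd3, at 841 and 782 against 392 and 376 CPM. With CI994, Vim stood at 416 and 422 CPM in shTet2 against 1659 and 1691 CPM in shControl. Fn1 went the other way, at 8023 and 6858 against 6300 and 6667 CPM. Epithelial sums were 1219 to 1273 RPKM in Py2T LT and 1383 to 2010 RPKM in the clones. Krt8 and Krt18 made up most of each epithelial sum. Krt18, Epcam, Cldn3 and Cldn7 were higher in every clone library than in Py2T LT. Cldn4 went the other way, from 63.8 and 47.8 RPKM in Py2T LT to 1.74 to 8.94 RPKM in the clones. Cdh1 stood at 2.32 and 1.56 RPKM in Py2T LT. It was lower in M1 (1.05 and 1.11 RPKM), higher in M2 (6.01 and 4.27 RPKM), and overlapped Py2T LT in M3 (1.62 and 1.80 RPKM). Untreated, epithelial sums were 965 to 2494 CPM in shControl, 3412 to 3883 CPM in shTet2 and 2514 to 2614 CPM in shMbd3, and with CI994 3574 to 3586, 4381 to 4419 and 3124 to 3261 CPM. The part of these shifts in the results on the members was not tested.

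Promoter sequence was read from RefSeq windows on GRCm38.p6, from 250 bases before to 50 bases after each annotated start. A window was present for 29 of the 38 members. The core of the interferon-stimulated response element was searched on both strands as GAAA, any 2 bases and GAAA again. On the other strand it reads as TTTC, any 2 bases and TTTC. It occurred in 13 of the 29 members with a window (44.8%), against 3.99% of all 27025 genes with one. Members had a median of 6 CpG sites in a window against 7 over all windows, with a range of 1 to 43 among the members. The stretches of 150 bases before the start are shown for 5 members that carry this core there and that the comparisons turn on, and for Lgals3bp, which carries none. Capitals mark every match to this core, on either strand, and overlapping matches run together, so that 3 matches form the capitals in Isg15 and 2 each those in Bst2 and Gbp3. Each stretch is written 5′ to 3′ on the strand of its gene.
Isg15: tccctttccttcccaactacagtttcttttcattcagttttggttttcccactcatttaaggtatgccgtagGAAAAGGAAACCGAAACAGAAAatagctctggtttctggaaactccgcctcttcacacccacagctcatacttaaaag
Bst2: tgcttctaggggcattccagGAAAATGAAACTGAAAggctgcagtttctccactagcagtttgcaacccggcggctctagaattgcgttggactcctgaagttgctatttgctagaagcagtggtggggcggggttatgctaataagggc
Oas3: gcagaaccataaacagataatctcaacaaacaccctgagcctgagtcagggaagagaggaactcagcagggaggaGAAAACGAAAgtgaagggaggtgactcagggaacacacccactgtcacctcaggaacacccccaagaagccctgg
Gbp2: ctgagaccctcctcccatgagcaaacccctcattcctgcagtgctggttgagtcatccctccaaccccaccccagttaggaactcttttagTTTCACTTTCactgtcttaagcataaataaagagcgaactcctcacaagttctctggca
Gbp3: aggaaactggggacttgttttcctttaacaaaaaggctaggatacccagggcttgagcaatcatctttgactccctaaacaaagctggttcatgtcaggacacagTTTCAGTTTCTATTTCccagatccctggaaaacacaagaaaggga
Lgals3bp: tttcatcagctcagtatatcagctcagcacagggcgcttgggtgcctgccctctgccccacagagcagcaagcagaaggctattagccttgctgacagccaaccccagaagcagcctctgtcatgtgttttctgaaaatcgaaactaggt
On GRCm38.p6 these are chr4:156200819-156200968 for Isg15, chr8:71537473-71537622 for Bst2, chr5:120777660-120777809 for Oas3 and chr11:118401960-118402109 for Lgals3bp, all on the minus strand, with chr3:142620513-142620662 for Gbp2 and chr3:142559894-142560043 for Gbp3 on the plus strand. Isg15 and Bst2 read the motif in the direction of transcription, as does Oas3, while Gbp2 and Gbp3 hold it on the opposite strand. A match is a stretch of letters and not a measured binding site, and no binding or methylation data were used here.

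The interferon genes themselves were barely detected. Of 10 ligand genes in the CPM files 7 had 0 reads in all 12 libraries, and Ifnb1, which encodes interferon beta, had 1 read in all. Ifng and Ifne reached at most 2 and 3 reads in a library. Ifnb1 was also at 0 in all 8 RPKM libraries, and Ifne reached at most 0.943 RPKM. The receptors and Jak1 were present in every library. Ifnar1 ran from 10.4 to 14.2 RPKM and from 52.5 to 83.5 CPM, Ifnar2 from 5.84 to 7.37 RPKM and from 15.0 to 21.5 CPM, and Jak1 from 30.5 to 45.5 RPKM.

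Levels of the members covered a wide range. Per length, Ifitm3, a membrane protein that blocks virus entry, was the highest, at 142 and 214 RPKM in M3. Samhd1, a dNTP hydrolase, followed at 30.2 and 28.3 RPKM, then Bst2 (tetherin), which holds budding virions at the cell surface, at 24.5 and 31.2 RPKM, and Irf1 and Trim25 at 19.8 to 20.6 RPKM. The order of Samhd1 and Bst2 in M3 lay within the spread of the libraries. At the other end, 16 of 38 members stayed under 1 RPKM in all 8 libraries, and 4 members stayed under 0.5 CPM in all 12. Oas1a, a 2'-5' oligoadenylate synthetase, had 6 reads over the 12 CPM libraries, and its relative Oas2 had 9. Mx1 and Mx2, dynamin-like GTPases against viruses, had 38 and 20 reads. A minimum in 2 libraries, of 1 RPKM or of 0.5 CPM, left 22 and 33 members to test. Oas1a, Oas2, Mx1, Mx2 and Ifi44 were tested in neither set, and no statement is made on whether they changed.

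The first comparison asks how members differ between the mesenchymal clones and TGF-beta-treated Py2T LT cells. Against Py2T LT, the mean of the clones had higher levels of 11 and lower levels of 6 of the 22 tested members at limma adjusted p under 0.05, 77.3% in all. Among all 11717 tested genes 65.0% were called, 32.4% higher and 32.6% lower, so that most genes passed this threshold. The median log2 difference was 0.21 over the members and -0.0031 over all genes. Log2 differences here and below are on the scale of the scaled value + 0.5, which compresses genes near 0. Each clone alone gave 10 higher and 5 lower in M1 (60.8% of all genes called, 30.7% higher and 30.2% lower). They were 7 and 7 in M2 (57.4%, 28.2% and 29.2%), and 10 and 4 in M3 (59.4%, 29.9% and 29.5%). Called higher in each of the 3 clones were 7 members, Bst2, Lgals3bp, Ifit2, Gbp2, Ifitm3, Trex1 and Eif2ak2, and called lower in each were 4, Oasl2, Dtx3l, Irf9 and Parp9. Of all tested genes, 20.7% were called higher and 20.5% lower in each of the 3 clones, so that 4 of 22 members lower lies near the share of all genes. These comparisons share the Py2T LT libraries.

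Among the transcription factors, Irf9 was lower in the clones, at 2.92 and 2.93 RPKM in Py2T LT and 1.35 to 1.77 RPKM over the 6 clone libraries. All clone libraries lay below both Py2T LT libraries, with a log2 difference of -0.73 ± 0.12 (SE) and adjusted p = 5.6e-04. Stat2 was higher in M3 alone among the single clones, by 0.67 ± 0.15 (adjusted p = 0.00559), and its call for the mean of the clones (0.35 ± 0.13, adjusted p = 0.0387) was lost when any of 5 libraries was left out. Irf1 stood at 19.7 and 19.9 RPKM in Py2T LT, between M1 (24.2 and 23.1) and M2 (14.7 and 13.5). Irf7 was too low to test here, at 0 and 0.0301 RPKM in Py2T LT and 0.289 to 0.532 RPKM in the clones, which do not overlap.

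Of the sensors and their regulators, Trex1, a DNA exonuclease that removes DNA from the cytosol, stood at 5.32 and 5.85 RPKM in Py2T LT and 9.62 to 12.6 RPKM in the clones. The groups did not overlap, and the difference was 0.87 ± 0.11 (adjusted p = 1.13e-04). Trex1 overlaps Atrip on the genome, and how the authors divided their reads is not given in the sources used here. Trim25, a ubiquitin ligase that acts on the RNA sensor Rigi, did not pass (-0.10 ± 0.12).

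Oasl2, an OAS-like protein, gave the largest difference of any member. It stood at 3.78 and 3.49 RPKM in Py2T LT, 0.0197 and 0.0429 RPKM in M1, 0.0998 and 0.0773 RPKM in M2, and 0.158 and 0.0887 RPKM in M3. All 6 clone libraries lay far below Py2T LT, with a log2 difference of -2.85 ± 0.11 (adjusted p = 5.92e-08). Ifit2, which binds viral RNA and restrains translation, went the other way. It rose from 1.58 and 2.29 RPKM in Py2T LT to 7.03 to 9.58 RPKM in the clones, by 1.84 ± 0.14 (adjusted p = 6.17e-06), with no overlap. Its family members Ifit1 and Ifit3 stayed under 1 RPKM throughout, and Ifit3 has a near-identical copy, Ifit3b, with which it can share reads.

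Gbp2, an interferon-induced guanylate-binding GTPase, stood at 1.47 and 2.14 RPKM in Py2T LT, 7.94 and 7.83 in M1, 3.98 and 3.73 in M2, and 5.89 and 7.63 in M3. All clone libraries lay above Py2T LT, by 1.47 ± 0.14 for their mean (adjusted p = 2.74e-05). Gbp genes resemble each other in sequence, so that counts of Gbp2 and Gbp3 are uncertain where reads could be split.

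The ISG15 and ADP-ribosylation group fell or did not pass. Dtx3l, a ubiquitin ligase, stood at 9.60 and 10.7 RPKM in Py2T LT and 3.65 to 5.75 RPKM in the clones, lower by 1.04 ± 0.13 on the log2 scale with adjusted p = 1.1e-04. Its partner Parp9, whose gene lies next to it, went from 8.85 and 10.2 RPKM to 6.21 to 7.18 RPKM (-0.51 ± 0.10, adjusted p = 0.002), and Parp14, an ADP-ribosyltransferase, differed by -0.52 ± 0.14 (adjusted p = 0.00908). Isg15, a ubiquitin-like modifier, stood at 1.46 and 2.73 RPKM in Py2T LT and 0.662 to 1.53 RPKM in the clones, so the groups overlapped. Its difference of -0.72 ± 0.25 passed (adjusted p = 0.0305) and was lost under 7 of 16 alternatives. Herc6, a ligase for ISG15, did not pass (0.14 ± 0.11).

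Restriction factors at the membrane and Lgals3bp were higher. Bst2 stood at 5.24 and 5.40 RPKM in Py2T LT, 32.5 and 26.0 in M1, 19.4 and 16.6 in M2, and 24.5 and 31.2 in M3, a difference of 2.08 ± 0.12 for the mean of the clones (adjusted p = 1.1e-06). Ifitm3 went from 87.6 and 95.2 RPKM to 142 to 241 RPKM (1.12 ± 0.14, adjusted p = 1.18e-04). Lgals3bp, a secreted glycoprotein, stood at 1.15 and 1.39 RPKM in Py2T LT, 9.79 and 8.56 in M1, 3.15 and 2.51 in M2, and 12.3 and 12.5 in M3. It differed by 2.06 ± 0.12 (adjusted p = 8.97e-07). In each of these 3 genes every clone library exceeded both Py2T LT libraries. Eif2ak2, the kinase PKR that senses double-stranded RNA, was also higher (0.67 ± 0.12, adjusted p = 0.0011), while Samhd1 did not pass (0.07 ± 0.08).

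**Figure D1:**
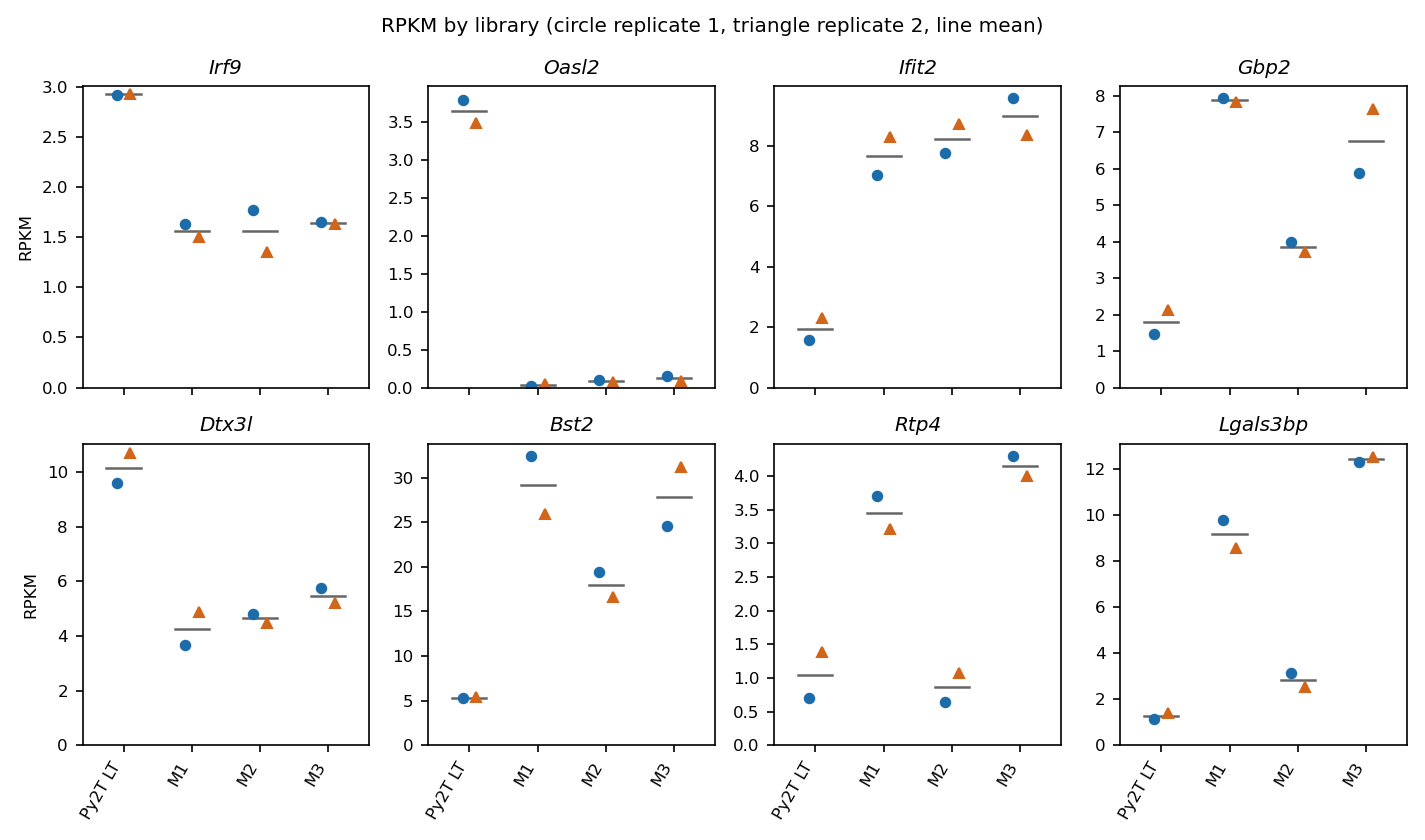
RPKM (vertical axes from 0, a separate scale per gene) of 8 members in Py2T LT and the 3 clones, with circles for replicate 1, triangles for replicate 2 and lines for means. Oasl2, Dtx3l and Irf9 lie lower and Ifit2, Gbp2, Bst2 and Lgals3bp higher in every clone library than in Py2T LT, and Rtp4 in M2 lies at the level of Py2T LT.

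The clones differed among themselves, with M2 apart. M1 exceeded M2 in 6 members and was lower in 1 of the 22 tested, against 23.1% of all genes called (12.5% higher and 10.6% lower). M3 exceeded M2 in 7 and was lower in 0, where 20.1% of all genes were called, 10.6% higher and 9.55% lower. By limma at an unadjusted p under 0.05, 2 members were lower in M3. Between M1 and M3 no member passed by limma, where 5.03% of all genes did, 1.95% higher and 3.07% lower, and 4 members had an unadjusted p under 0.05, all of them lower in M1. Leaving out M2 replicate 2 left 3 members for M1 (7.54% of all genes called) and 2 for M3 (7.31%), and leaving out M2 replicate 1 left 3 for M3 (7.54%). Without M3 replicate 2, 3 of the 7 members higher in M3 were kept and 1 other member was called lower (8.53% of all genes). Without M1 replicate 2, 3 of 22 members passed for M1 against M3, where 28.3% of all genes did.

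Rtp4, a receptor transporter protein, and Lgals3bp gave the largest of these differences. Rtp4 stood at 0.637 and 1.08 RPKM in M2, which overlapped Py2T LT (0.703 and 1.39), and at 3.70 and 3.21 in M1 and 4.30 and 3.99 in M3. M3 exceeded M2 by 1.80 ± 0.24 (adjusted p = 0.00136) and M1 exceeded it by 1.54 ± 0.24 (adjusted p = 0.00286). For Lgals3bp the differences from M2 were 1.98 ± 0.14 in M3 (adjusted p = 4.91e-05) and 1.53 ± 0.14 in M1 (adjusted p = 2.65e-04). Irf1, Gbp2, Gbp3 and Bst2 were also higher in both M1 and M3 than in M2, by 0.52 to 0.93 on the log2 scale. The call of Gbp3 in M3 was lost under 8 of 16 alternatives. Ifih1, the double-stranded RNA sensor MDA5, was lower in M1 than in M2 by 0.82 ± 0.21 on that scale with adjusted p = 0.0257, and it was lost under 6 of 16 alternatives.

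The next question is how members differ when Tet2 is knocked down in M3. Against untreated shControl, 9 of the 33 tested members were lower and 0 higher in shTet2 (27.3%), where 23.4% of all 12808 tested genes were called, 12.9% lower and 10.5% higher. The median log2 difference was -0.32 over the members and 0.02 over all genes. At an unadjusted p under 0.05, 2 members were higher and 13 lower by limma. edgeR and DESeq2 on reads recovered from the CPM called 9 and 10 members lower and 0 higher. Without the library labelled shControl replicate 1 the counts were 14 lower and 0 higher, with all 9 kept, where 32.9% of all genes were called, and without shControl replicate 2 they were 15 lower and 3 higher, where 63.5% of all genes were called, a larger share than among the members.

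Rtp4 fell furthest, from 5.77 and 6.32 CPM in shControl to 0.331 and 0.448 CPM in shTet2, by 2.88 ± 0.18 on the log2 scale (adjusted p = 1.17e-05). Lgals3bp went from 9.06 and 16.2 CPM to 1.79 and 1.64 CPM, a difference of -2.49 ± 0.24 (adjusted p = 1.36e-04). In both genes the groups lay well apart in spite of the spread in shControl. Gbp3 stood at 4.16 and 3.16 CPM in shControl and 0.897 and 0.299 CPM in shTet2 (-1.96 ± 0.29, adjusted p = 0.00156). Xaf1, an inhibitor of the apoptosis inhibitor XIAP, stood at 2.47 and 2.68 CPM against 0.661 and 0.149 CPM (-1.82 ± 0.29, adjusted p = 0.0022). Gbp2 went from 28.6 and 22.1 CPM to 7.79 and 6.72 CPM (-1.70 ± 0.18, adjusted p = 2.08e-04). These guanylate-binding proteins and Xaf1 likewise showed no overlap between groups. Parp14 went from 23.0 and 17.8 CPM to 9.30 and 7.22 CPM (-1.23 ± 0.19, adjusted p = 0.00179).

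The other members called lower in shTet2 were Oas3 (-0.99 ± 0.23), Cmpk2 (-0.85 ± 0.25) and Parp9 (-0.55 ± 0.13). Cmpk2, a mitochondrial nucleotide kinase, had at most 19 reads in a library and was lost under 12 of 22 alternatives. The 4 transcription factors among the members did not pass, with Irf1 at -0.32 ± 0.17, Irf9 at 0.05 ± 0.19, Stat2 at -0.12 ± 0.18 and Irf7 at 0.55 ± 0.19. Bst2, Isg15 and Ifih1 did not pass either, at -0.38 ± 0.18, -0.23 ± 0.32 and -0.58 ± 0.25.

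Cells labelled shMbd3 differed from shControl in both directions. Against untreated shControl, 9 of the 33 tested members were higher and 5 lower in shMbd3 (42.4%), where 32.2% of all genes were called, 15.3% higher and 16.9% lower. The median log2 difference was 0.16 over the members and 0.0028 over all genes. Without the library labelled shControl replicate 1, 6 were higher and 5 lower, where 34.4% of all genes were called, and Irf1, Irf7 and Ifi35 were no longer called. Leaving out shMbd3 replicate 1 or replicate 2 left 7 called, with 12.4% and 14.0% of all genes.

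Oasl2 rose most, from 0.458 and 0.431 CPM in shControl to 2.67 and 1.56 CPM in shMbd3 (1.40 ± 0.22, adjusted p = 0.0022). Bst2 went from 7.55 and 12.3 CPM to 24.7 and 24.8 CPM (1.25 ± 0.18, adjusted p = 0.00112). Ifih1 went from 6.68 and 4.41 CPM to 12.7 and 15.1 CPM (1.21 ± 0.25, adjusted p = 0.00708). In these 3 genes both shMbd3 libraries lay above both shControl libraries. Usp18, the protease that removes ISG15 and damps the receptor, went from 0.183 and 0.335 CPM to 0.960 and 1.56 CPM (1.17 ± 0.24, adjusted p = 0.00704), resting on 4 to 35 reads a library. Parp14 (0.81 ± 0.19), Irf1 (0.62 ± 0.17), Irf7 (0.62 ± 0.19), Trim25 (0.54 ± 0.09) and Ifi35 (0.65 ± 0.22) were also called higher. The calls of Irf7 and Ifi35 were lost under 13 and 14 of 22 alternatives.

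Gbp2 also fell in shMbd3, to 8.01 and 8.61 CPM (-1.60 ± 0.18, adjusted p = 2.84e-04). Ifit2 went from 57.4 and 38 CPM to 17.9 and 18.0 CPM (-1.42 ± 0.21, adjusted p = 0.00125), with 46.7 and 42.9 CPM in shTet2. Gbp3 stood at 1.29 and 1.34 CPM (-1.24 ± 0.29, adjusted p = 0.0133), Oas3 at 0.125 and 0.223 CPM (-1.11 ± 0.23, adjusted p = 0.00763) and Rtp4 at 3.17 and 3.44 CPM (-0.84 ± 0.18, adjusted p = 0.00839). All 5 lay below both shControl libraries.

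Cells with shTet2 and shMbd3 were also set against each other, which leaves out the shControl libraries. In shTet2, 14 of 33 members were lower and 1 higher than in shMbd3 (45.5%), where 19.2% of all genes were called, 9.60% lower and 9.55% higher. The median log2 difference was -0.58 over the members and -0.0013 over all genes. Lgals3bp differed by -2.41 ± 0.24 (adjusted p = 2.42e-04), Parp14 by -2.04 ± 0.19 (adjusted p = 1.77e-04), Rtp4 by -2.04 ± 0.18 (adjusted p = 1.21e-04), Ifih1 by -1.80 ± 0.25 (adjusted p = 0.00129), Oasl2 by -1.79 ± 0.22 (adjusted p = 8.01e-04) and Bst2 by -1.63 ± 0.18 (adjusted p = 3.94e-04). Ifit2 was the 1 member higher in shTet2, by 1.39 ± 0.21 (adjusted p = 0.0019). Gbp2 and Oas3, lower than shControl in both shTet2 and shMbd3, differed between them by -0.10 ± 0.18 and 0.12 ± 0.23, within their errors.

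**Figure D2:**
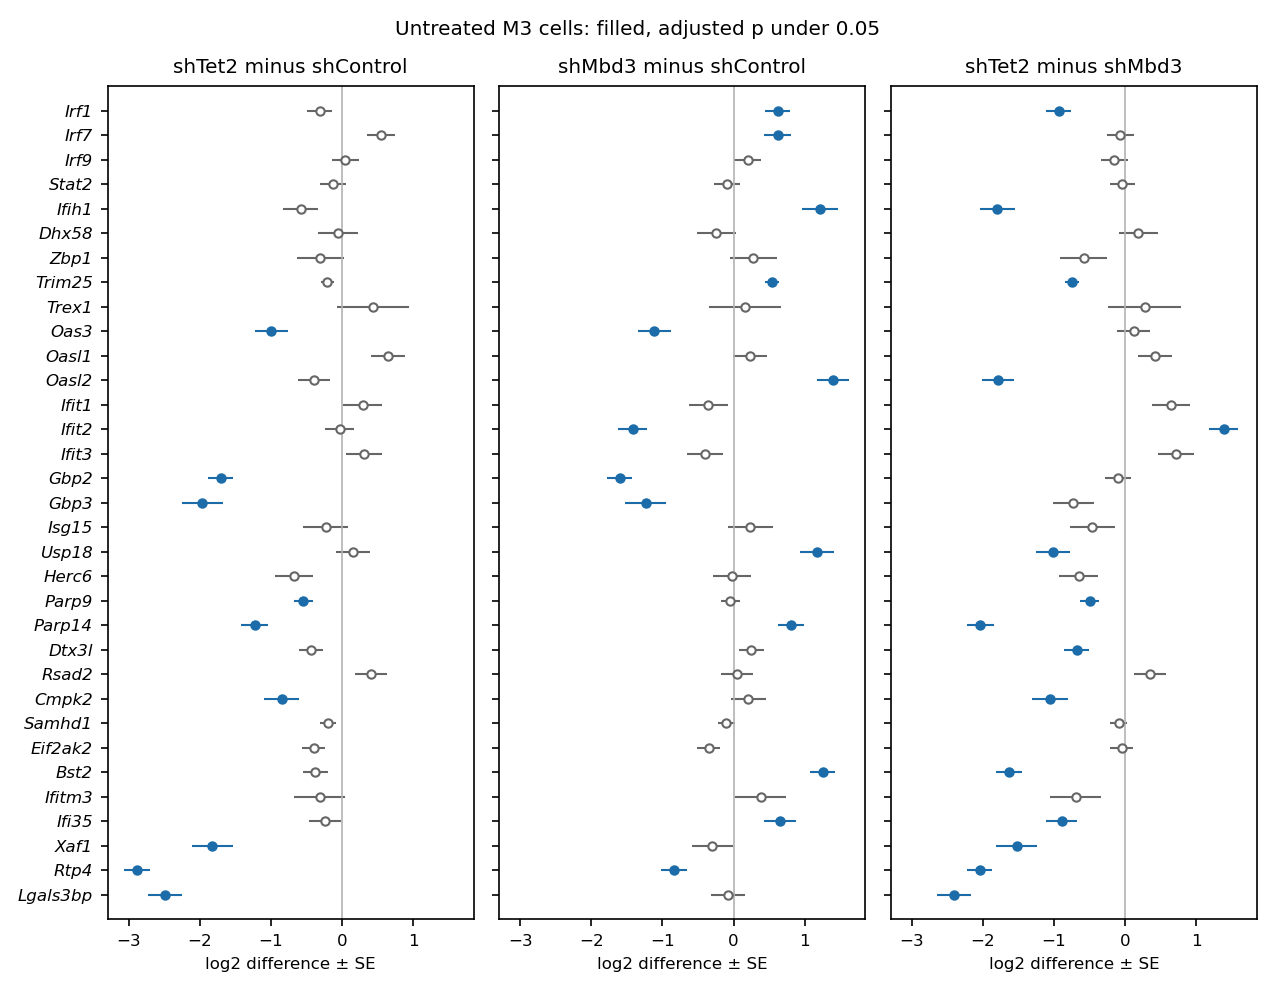
Log2 differences (horizontal axes, points with bars of 1 SE) of the 33 tested members in untreated M3 cells, filled where limma adjusted p was under 0.05. shTet2 minus shControl has 9 filled points, all below 0, shMbd3 minus shControl has 9 above and 5 below 0, and shTet2 minus shMbd3 has 1 above and 14 below 0.

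CI994 was compared with no treatment within each shRNA. It raised 6 and lowered 5 of the 33 members in shControl (33.3%), where 33.6% of all genes were called, 17.9% higher and 15.7% lower. In shTet2 it raised 12 and lowered 0 (36.4%), where 24.3% of all genes were called, 12.6% higher and 11.7% lower. There 2 members were lower at an unadjusted p under 0.05 by limma, and edgeR and DESeq2 called 0 lower. In shMbd3 it raised 5 and lowered 2 (21.2%), where 12.7% of all genes were called, 7.58% higher and 5.11% lower. The median log2 difference over the members was -0.01 in shControl, 0.45 in shTet2 and 0.07 in shMbd3, against 0.03, 0.0074 and 4.6e-04 over all genes. Without the library labelled shControl replicate 1 the counts were 5 higher and 6 lower in shControl (29.7% of all genes called), and without replicate 2 they were 11 and 11 (70.3%). Both libraries share the fit with all groups. Without replicate 1 or replicate 2, 15 were higher and 3 lower in shTet2 (57.5% and 57.6% of all genes), and 8 higher and 5 lower in shMbd3 (41.8% for each), shares of all genes that are close to those of the members. Leaving out treated shControl replicate 1 left 5 called in shControl (8.92% of all genes), and replicate 2 left 4 (10.9%). In shTet2, 6 were called without untreated replicate 1 (9.17%), 5 without untreated replicate 2 (8.47%) and 5 without treated replicate 1 (7.23%). In shMbd3, 3 were called without any 1 of its own 4 libraries (3.55% to 4.44%), and 4 without treated shTet2 replicate 1 (9.06%) or replicate 2 (9.05%).

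Isg15, Bst2, Oas3 and Usp18 were called higher with CI994 in all 3 backgrounds, as were 4.72% of all genes. In shControl, Isg15 went from 0.183 and 1.01 CPM untreated to 3.08 and 2.41 CPM with CI994. In shTet2 it went from 0.472 and 0.249 to 3.68 and 3.84 CPM, and in shMbd3 from 0.668 and 0.758 to 4.16 and 4.91 CPM. Every treated library exceeded every untreated one, with log2 differences of 1.67 ± 0.32 (adjusted p = 0.00629), 2.29 ± 0.32 (adjusted p = 0.00144) and 2.04 ± 0.32 (adjusted p = 0.00427).

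Bst2 rose from 7.55 and 12.3 to 29.1 and 27.2 CPM in shControl (1.46 ± 0.18, adjusted p = 9.13e-04). In shTet2 it went from 7.60 and 6.77 to 40.9 and 35.7 CPM (2.27 ± 0.18, adjusted p = 1.58e-04), and in shMbd3 from 24.7 and 24.8 to 57.2 and 57.0 CPM (1.18 ± 0.18, adjusted p = 0.00383). Treated and untreated libraries did not overlap within any background. Oas3, an oligoadenylate synthetase that activates RNase L, went from 0.641 and 1.29 to 2.08 and 3.07 CPM in shControl (1.07 ± 0.23, adjusted p = 0.0108), from 0.236 and 0.199 to 2.16 and 1.70 CPM in shTet2 (1.73 ± 0.23, adjusted p = 0.00128), and from 0.125 and 0.223 to 1.72 and 1.80 CPM in shMbd3 (1.73 ± 0.23, adjusted p = 0.0022). Oas3 was thus low in untreated shTet2 and shMbd3, on 3 to 5 reads a library, and above untreated shControl in all treated libraries. Usp18 reached 1.01 to 3.03 CPM with CI994, against 0.183 to 1.56 CPM untreated, and its call in shMbd3 (0.86 ± 0.24, adjusted p = 0.0458) was lost under 12 of 22 alternatives. Of these 4 genes 3 have a promoter window, and all 3 hold the response element core, as do 8 of the 11 members with a window that were higher in at least 1 background. Gbp2, which also holds it, was lower with CI994 in shControl. In the clones the core was in 4 of 7 members called higher in each clone and in 0 of the 3 with a window called lower in each, where 13 of all 29 members with a window hold it. These counts are small and were not tested.

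Among the transcription factors, Irf7, which drives interferon and antiviral genes, went from 0.320 and 0.479 to 1.16 and 1.46 CPM in shControl (1.00 ± 0.19, adjusted p = 0.00691) and from 0.614 and 0.996 to 2.58 and 2.15 CPM in shTet2 (1.10 ± 0.19, adjusted p = 0.00457). Stat2 rose by 0.64 ± 0.18 (adjusted p = 0.0283) and 0.80 ± 0.18 (adjusted p = 0.0146) in the same cells. Each of these calls was lost under 3 of 22 alternatives, all with a library of that background left out. For shControl these included the library labelled shControl replicate 1. In shMbd3 neither passed, at 0.50 ± 0.19 and 0.49 ± 0.18. In shTet2 alone the threshold was also passed by Oasl1, Rsad2, Ifih1, Ifit1, Parp14 and Trim25. Of these calls, Trim25 was lost under 11 of 22 alternatives and Ifit1 and Parp14 under 10 each. Rsad2, viperin, an enzyme that makes a chain-terminating nucleotide, went from 0.283 and 0.0996 to 0.676 and 1.30 CPM (1.06 ± 0.23, adjusted p = 0.0113), on at most 29 reads in a library. Passing in 1 background does not show a difference between backgrounds, which the interaction below tests.

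Several members fell with CI994 in shControl. Gbp2 went from 28.6 and 22.1 to 8.45 and 9.46 CPM (-1.48 ± 0.18, adjusted p = 8.81e-04), Rtp4 from 5.77 and 6.32 to 2.52 and 2.06 CPM (-1.26 ± 0.18, adjusted p = 0.00169) and Xaf1 from 2.47 and 2.68 to 1.16 and 0.855 CPM (-1.06 ± 0.29, adjusted p = 0.0241). Dtx3l (-0.74 ± 0.17) and Parp9 (-0.63 ± 0.13) were also lower. In shMbd3 Lgals3bp (-1.01 ± 0.24, adjusted p = 0.0259) and Rtp4 (-0.70 ± 0.18, adjusted p = 0.034) were lower, and Gbp3 was higher (1.05 ± 0.29, adjusted p = 0.0459). In shMbd3 the calls of Rtp4 and Gbp3 were each lost under 10 of 22 alternatives.

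**Figure D3:**
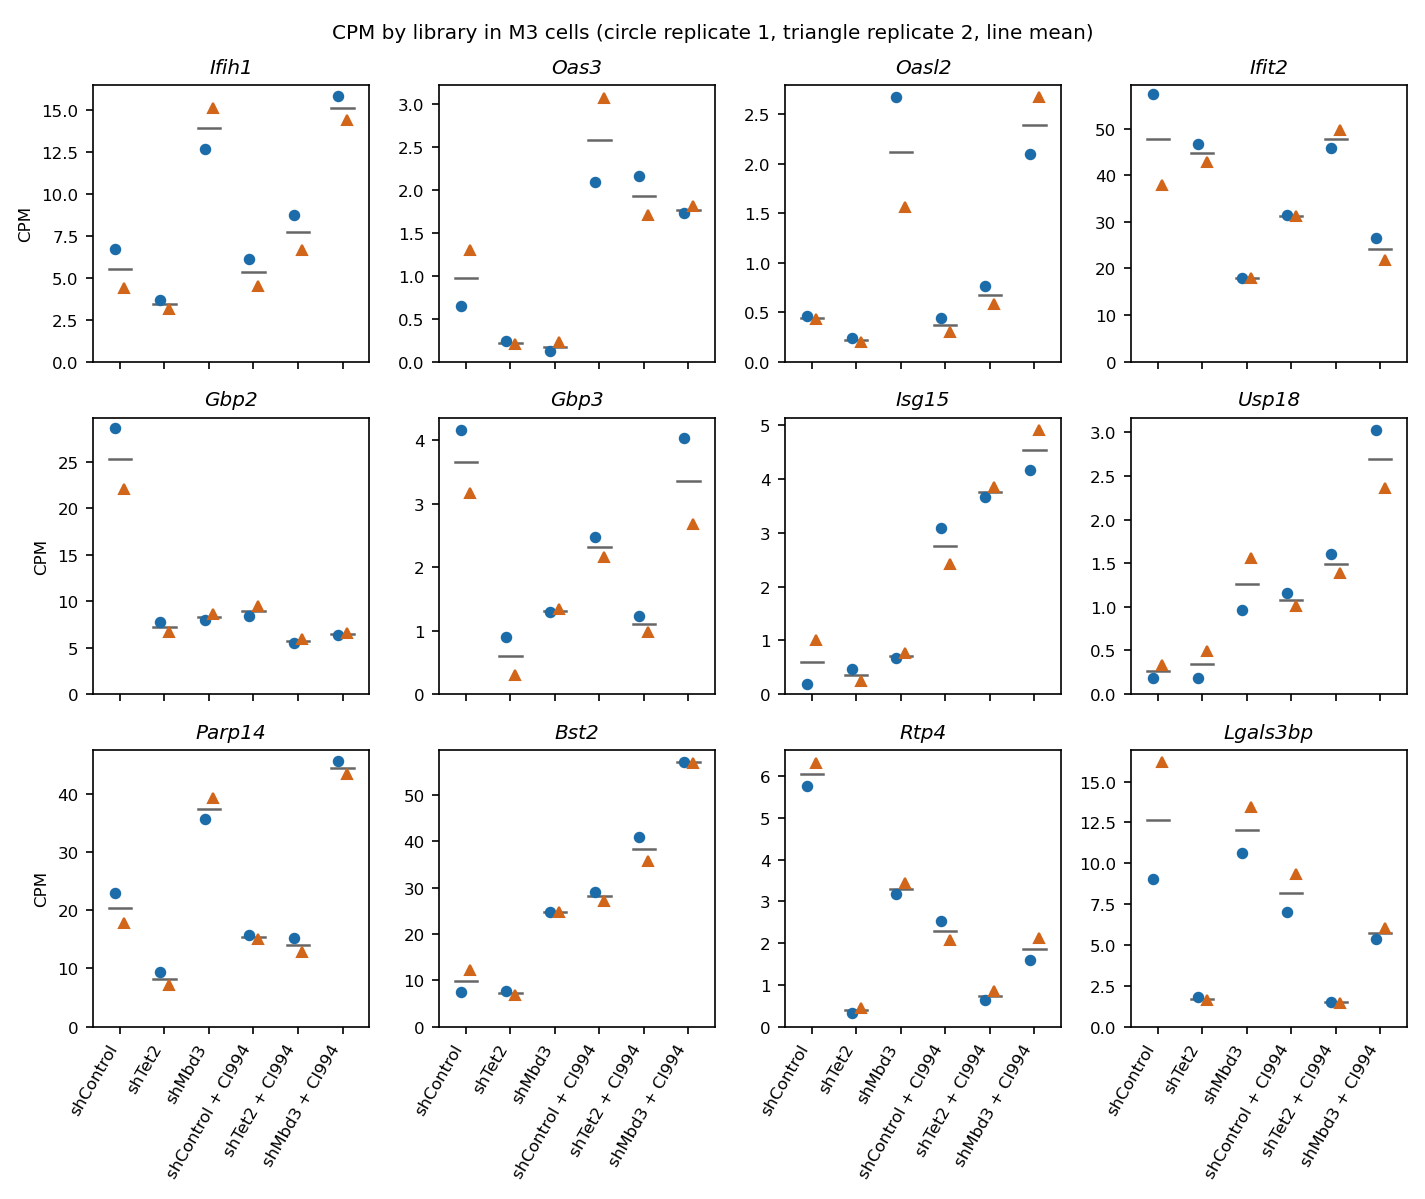
CPM (vertical axes from 0, a separate scale per gene) of 12 members in the 12 M3 shRNA libraries, with circles for replicate 1, triangles for replicate 2 and lines for means. Isg15, Oas3 and Bst2 lie higher with CI994 in each background, Ifih1, Oasl2 and Parp14 are high in both shMbd3 groups, and Rtp4 and Lgals3bp are low in both shTet2 groups.

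**Figure D4:**
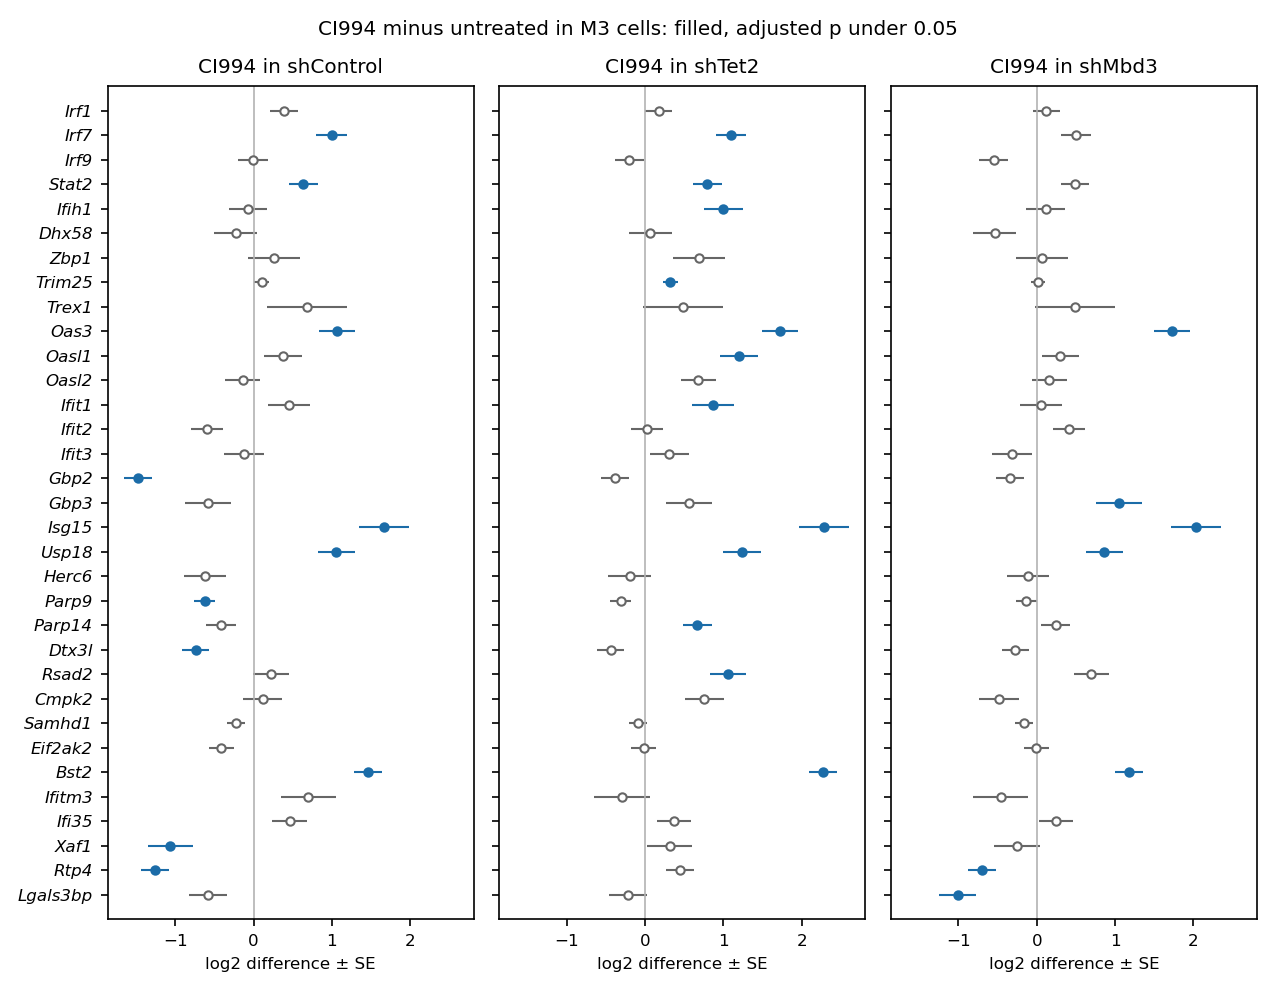
Log2 differences of CI994 minus untreated (horizontal axes, points with bars of 1 SE) of the 33 tested members in the 3 shRNA backgrounds, filled where limma adjusted p was under 0.05. Filled points number 6 above and 5 below 0 in shControl, 12 above and 0 below in shTet2, and 5 above and 2 below in shMbd3.

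The shRNAs were then compared within CI994-treated cells, where the replicate log2 differences had SDs of 0.206 to 0.243 over all genes, against 0.703 in untreated shControl. Against shControl, shTet2 gave 3 members higher and 4 lower (21.2%), where 16.0% of all genes were called, 6.69% higher and 9.28% lower. Lgals3bp stood at 7.05 and 9.36 CPM in shControl with CI994 and 1.52 and 1.43 CPM in shTet2 with CI994 (-2.13 ± 0.24, adjusted p = 3.73e-04). Rtp4 stood at 2.52 and 2.06 against 0.634 and 0.849 CPM (-1.17 ± 0.18, adjusted p = 0.002), and Ifitm3 at 128 and 149 against 54.2 and 56.7 CPM (-1.31 ± 0.35, adjusted p = 0.0352). Each pair was separate, as it was for Oasl1, which was higher, at 1.90 and 1.61 against 0.440 and 0.201 CPM (1.46 ± 0.24, adjusted p = 0.00304). Rsad2 (1.25 ± 0.23, adjusted p = 0.00568) was higher too. The calls for Ifitm3, Gbp2 (-0.61 ± 0.18) and Irf7 (0.66 ± 0.19) were lost under 10, 12 and 15 of 22 alternatives.

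Within CI994, shMbd3 gave 8 members higher and 0 lower than shControl (24.2%), where 19.1% of all genes were called, 8.11% higher and 11.0% lower. By limma 3 members were lower at an unadjusted p under 0.05, and edgeR and DESeq2 called 0 lower. Oasl2 stood at 2.10 and 2.67 CPM against 0.440 and 0.302 CPM (1.70 ± 0.22, adjusted p = 8.57e-04), Parp14 at 45.6 and 43.5 against 15.8 and 15.0 CPM (1.47 ± 0.19, adjusted p = 6.97e-04), and Ifih1 at 15.9 and 14.4 against 6.13 and 4.53 CPM (1.40 ± 0.25, adjusted p = 0.00419). None of these pairs overlapped. Bst2 (0.98 ± 0.18), Usp18 (0.98 ± 0.24), Dtx3l (0.71 ± 0.17), Trim25 (0.45 ± 0.09) and Parp9 (0.44 ± 0.13) completed the 8. Leaving out the library labelled shControl replicate 1, which is in neither comparison but shares the fit, gave 6 higher and 7 lower for Tet2 (40.5% of all genes called) and 11 higher and 5 lower for Mbd3 (44.1%). Leaving out shControl replicate 2 gave 14 (40.4%) and 16 (44.1%) in all. Leaving out any 1 of the treated libraries, or of the untreated shMbd3 libraries, left 4 called for Tet2 (7.85% to 13.1% of all genes). For Mbd3, 5 and 4 were left without shControl with CI994 replicate 1 (9.91%) and replicate 2 (9.95%), and 4 and 5 without shMbd3 with CI994 replicate 1 (10.0%) and replicate 2 (10.1%).

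The interaction asks whether the response to CI994 in shTet2 or shMbd3 differed from that in shControl. For Tet2, 1 of 33 members passed, Rtp4, where 0.687% of all genes were called, 0.414% positive and 0.273% negative. CI994 lowered Rtp4 in shControl, and in shTet2 it stood at 0.331 and 0.448 CPM untreated and 0.634 and 0.849 CPM treated, so that the responses differed by 1.71 ± 0.25 (adjusted p = 0.0227). With all libraries edgeR called 0 members and DESeq2 called 3. Without the library labelled shControl replicate 1, limma called 5, with 6.39% of all genes. By limma 10 members had a positive and 0 a negative interaction at an unadjusted p under 0.05. For Mbd3 0 members passed, where 0.0781% of all genes did, 0.0390% in each direction, with 5 positive and 1 negative at an unadjusted p under 0.05 by limma, 0 called by edgeR and 1 by DESeq2. Leaving out shControl replicate 2 gave 15 calls for Tet2, where 38.2% of all genes were called, and 13 for Mbd3, where 49.3% were. Leaving out either library of shTet2 or of shMbd3 untreated, or of shControl or shTet2 with CI994, gave 0 for Tet2.

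**Figure D5:**
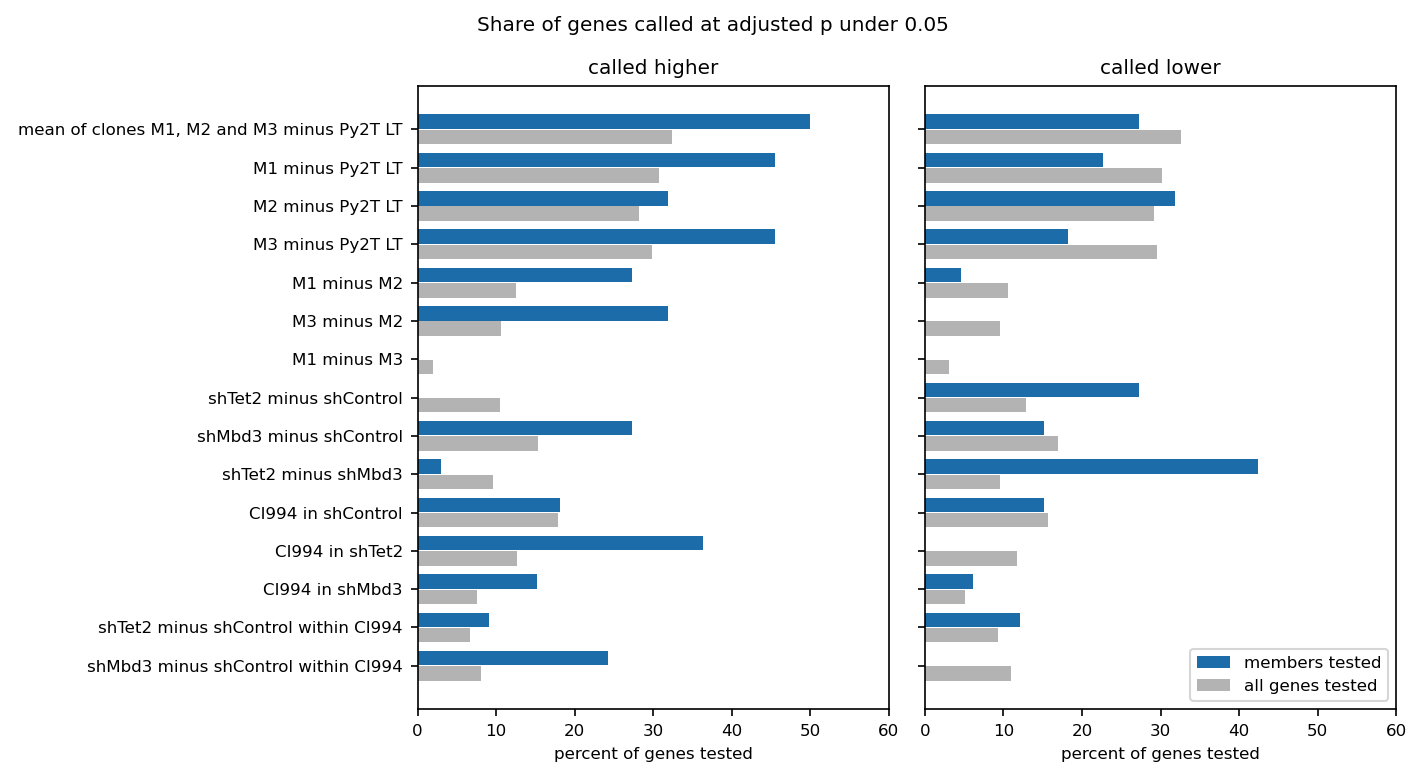
Percent of tested genes called higher (left) and lower (right) at limma adjusted p under 0.05, for the members (blue) and for all genes tested (grey), in 15 comparisons. Bars start at 0, and the members exceed all genes most in the lower calls of shTet2 minus shMbd3, 14 of 33 members against 9.60% of genes.

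Other genes of the pathway were read from the lists of ligands, receptors, kinases, sensors, repressors and further interferon-induced genes. In shTet2, 25 of 47 tested further interferon-induced genes were lower and 4 higher than in shControl, against 12.9% lower and 10.5% higher over all genes. Lower were, among others, the immunity-related GTPases Irgm2 (-2.25, adjusted p = 4.12e-05) and Ifi47 (-1.56, adjusted p = 3.08e-04) and the guanylate-binding Gbp7 (-2.85, adjusted p = 1.69e-04). Isg20, an exonuclease, was higher (1.12, adjusted p = 0.0077), as were Helz2 (0.93, adjusted p = 0.00854) and Tor3a (0.64, adjusted p = 0.0114). The median log2 difference over this list was -0.74. In shMbd3, 9 were higher and 4 lower (15.3% and 16.9% of all genes), with Helz2 (1.17, adjusted p = 0.00263) higher and Ifi203 (-1.64, adjusted p = 0.00192) lower. Of the 47, CI994 raised 10 and lowered 11 in shControl (17.9% and 15.7% of all genes). It raised 13 and lowered 3 in shTet2 (12.6% and 11.7%), and raised 6 and lowered 3 in shMbd3 (7.58% and 5.11%). Ube2l6, the enzyme that passes ISG15 to its targets, was higher in each, by 1.32 (adjusted p = 0.00109), 1.80 (adjusted p = 2.8e-04) and 0.86 (adjusted p = 0.0118). In the clones 19 of 34 tested genes of this list were higher and 8 lower than in Py2T LT, where 32.4% of all genes were higher and 32.6% lower. Higher were, among others, Ifi203 (3.53, adjusted p = 1.42e-08), Ifi204 (2.52, adjusted p = 1.01e-07) and Slfn8 (2.25, adjusted p = 4.06e-07).

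Upstream of the members, Ifnlr1, the receptor chain for interferon lambda, was higher in M3, at 2.93 and 2.30 RPKM against 0.0580 and 0.0139 RPKM in Py2T LT (2.54, adjusted p = 1.48e-06), and in M1, at 0.895 and 1.04 RPKM (1.44, adjusted p = 5.63e-05), while M2 stood at 0.187 and 0.151 RPKM. It was also higher with CI994 in all 3 backgrounds, by 0.76 (adjusted p = 0.00756), 1.26 (adjusted p = 7.18e-04) and 1.14 (adjusted p = 0.00199). Of the sensing genes above interferon, 6 of 11 tested were higher and 4 lower in the clones, where 65.0% of all genes were called, with Rigi, the RNA sensor, higher by 1.41 (adjusted p = 1.05e-05) and Cgas, the DNA sensor, lower by 1.37 on the log2 scale (adjusted p = 7.96e-06). Ticam1, the adaptor of Tlr3, was higher with CI994 by 1.84 (adjusted p = 4.23e-04) in shControl, 1.65 (adjusted p = 5.73e-04) in shTet2 and 1.56 (adjusted p = 0.00117) in shMbd3. Of 6 tested repressors of interferon genes, Trim28 was lower in the clones (-0.43, adjusted p = 9.33e-04), and Trim24 was lower with CI994 in all 3 backgrounds, by -0.82, -0.74 and -0.50 (adjusted p = 0.00396, 0.00618 and 0.0452).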

How the data were processed

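RNA was sequenced from 20 libraries after preparation with a stranded total RNA kit, per the labels' protocols. The submitters' processing notes name STAR and mm10, while the counting method and its use of strand are not given in the sources used here. The authors deposited RPKM for 8 libraries and CPM for 12. The unit of the first set was read from its values, in which RPKM and FPKM cannot be told apart. Each deposited CPM value was a whole multiple of 1 read (100% within 0.01 reads), so reads were recovered for count tests. The RPKM file of M3 replicate 2 held 7 further columns equal to the other files, and only its own was used. Gene numbers were matched to symbols for 19262 of 19311 and 24374 of 24454 genes.

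A gene was tested where 2 libraries of its set reached 1 RPKM or 0.5 CPM, which left 11717 and 12808 genes. Values were divided by TMM factors scaled with the column sums, 0.5 was added, and limma was run on log2 with group as the only term, a mean trend and robust moderation, with 1 fit per set and Benjamini-Hochberg adjustment over all genes to 0.05. Every adjusted p in the text is from limma. Tools were R 4.3.3, limma 3.58.1, edgeR 4.0.16, DESeq2 1.42.0 and Python 3.11.15 with pandas 2.3.3. The test was checked on simulated data. Alternatives were DESeq2 size factors, library size only, no filter, pseudocounts of 0.1 and 1, the replicate number as a block, removal of each library's GC trend, both together, edgeR and DESeq2 on recovered reads, and each library left out.

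Members and lists were chosen with earlier results of these data known. All 38 members could be named in any comparison, and up to 3 genes per direction with the smallest adjusted p from each other list, besides ligands, receptors, Jak1, Tet2 and Mbd3. Members given by library were the 6 with the largest called differences and a mean of at least 1 in the higher group, others of a role list being added after their values were seen.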

Additional observations from a re-analysis of the deposited data

Results flagged for a closer look

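Of the results on the members, 1 differed between groups by a test of the difference itself. The response of Rtp4 to CI994 differed between shTet2 and shControl cells by 1.71 on the log2 scale, as the limma interaction term gave it. CI994 lowered Rtp4 in shControl, whereas in shTet2 it was already low without treatment. In shTet2 it rested on 7 and 9 reads untreated and 15 and 19 reads treated. The value was lost under 9 of 22 alternatives, among them the edgeR test, and untreated shControl replicate 1, whose Mbd3 level went against its label, is 1 of the libraries behind it. Groups of 2 libraries are too small for a check of single outlying values.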

How the results depend on the processing

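Of 158 calls of members, 89 held under every alternative, 69 were lost under at least 1, and 0 changed sign. Most losses came from leaving out a library, which leaves a lone sample that is assumed to vary like the other groups. Counts of members called in the mean of the clones and in each clone against Py2T LT, and in shTet2 against shMbd3, stayed within 1.5 times under all alternatives. With 1 library left out, counts ran from 3 to 7 for M1 against M2, 2 to 9 for M3 against M2, 0 to 3 for M1 against M3, 6 to 18 for shTet2 and 7 to 20 for shMbd3 against shControl. They ran from 4 to 22 for CI994 in shControl, 5 to 18 in shTet2 and 3 to 13 in shMbd3, 4 to 14 for shTet2 and 4 to 16 for shMbd3 within CI994, 0 to 15 for the Tet2 interaction and 0 to 13 for the Mbd3 interaction. Among the CPM comparisons, the highest counts came without an untreated shControl library.

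Removing the GC trend gave 11 for shTet2 and 13 for shMbd3 within CI994, 4 for the Tet2 interaction and 2 for the Mbd3 interaction. The Tet2 interaction called 0 with edgeR and 3 with DESeq2, and the Mbd3 interaction 1 with DESeq2. The replicate block alone lost 3 of the 158 calls and moved no count by over 1.5 times. For shTet2 against shControl the replicate block called 11 members, 10 lower and 1 higher. With the replicate block and the GC trend removed together, counts were 14 for shTet2 against shControl, 20 for CI994 in shTet2, 12 for CI994 in shMbd3, 13 and 15 for shTet2 and shMbd3 within CI994, and 6 and 3 for the interactions. In each group, replicate 2 was subtracted from replicate 1 for every tested gene, and these differences were correlated between groups. The correlations were -0.122 to 0.128 in the RPKM set (1 of 6 pairs of groups over 0.1) and 0.0958 to 0.524 in the CPM set (14 of 15). The CPM values hint at shared experiments, but with 2 libraries a group and no label that ties a number to an experiment the numbers were not taken as pairs. The cause of these shifts was not tested. Members under the limit of 3 reads, with 2 libraries a group, cannot show small differences.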
